A study of Mus musculus with 6 samples.

Results

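The genes described here encode integrins, laminin chains and linkers of the hemidesmosome. The rule took every gene whose symbol begins with Itga, Itgb followed by digits, or Lama, Lamb or Lamc, plus Dst, Plec and Cd151. It uses no measured value, but this set of genes was proposed with earlier results of these data known, so its counts are a description. This gave 36 genes of the 19505 that the array annotation names, each read by 1 probe set. Itga1, Itga10 and Plec were not analysed here, because no probe set carries their name in the annotation used.

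RNA came from ER-negative luminal cells, the mammary population enriched for luminal progenitors, of young adult female mice in diestrus. The 3 WT mice were Sox9Fl/Fl without Cre, and the 3 Sox9 KO mice, called Sox9-cKO in the study, were MMTV-iCre; Sox9Fl/Fl, so both groups carried the floxed alleles. MMTV-iCre is a Cre driven by the promoter of a mouse mammary tumor virus, is active in mammary epithelium and has incomplete penetrance. Cells of both groups were sorted as Lin-, EpCAM-high, CD49f-low and Sca1-negative, and those of the Sox9 KO mice also as positive for ECFP, the reporter of Cre activity. Genotype, Cre and the ECFP gate therefore cannot be told apart, and the conditional knockout mice had a mixed strain background. CD49f is the protein product of Itga6, so the gate itself used 1 of the 36 genes at the protein level. Each mouse was digested and sorted on its own and measured on 1 Clariom S Pico array.

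Integrins are receptors of paired alpha and beta subunits that hold cells to the extracellular matrix and signal from it. Laminins are trimers of an alpha, a beta and a gamma chain, and they form the basement membrane on which the mammary epithelium rests. At the hemidesmosome, integrin alpha6 beta4 binds laminin outside the cell and is joined to keratin filaments inside it by plectin (Plec) and by the epithelial product of Dst. In the mammary gland, attachment to laminin through beta1 integrins is known to be needed for milk-producing differentiation, and basal cells carry most of the hemidesmosomes.

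All values are log2 array signals, and differences are Sox9 KO minus WT, so that -1 is a halved signal. Sox9 itself had a signal of 11.54 ± 0.07 (SD) in the 3 WT mice and of 7.36 ± 0.57 (SD) in the 3 Sox9 KO mice, with an adjusted p of 0.00867 in limma. The 95th percentile of the negative control probe sets, used here as the background level, lay between 7.75 and 8.58 on the 6 arrays. Above it on all 6 arrays were 14 of the 36 genes, and below it on all 6 were 19. The ER-negative luminal markers had mean signals between 10.1 and 10.3 on all arrays. Yet 3 of 11 were lower in Sox9 KO (Ltf, Aldh1a3 and Csn3) and 2 higher (Gabrp and Rspo1) at an unadjusted p under 0.05. Of all probe sets, 4.99% were lower and 4.28% higher at that p. Sox9 KO replicate 1 stood apart on the first principal component with a score of 57.4. On that array the mean of 9 cell cycle genes was 9.63, against 5.91 to 7.17 on the other arrays. Sox9 KO replicate 3 had the highest mean of 9 fibroblast markers, 7.25, and WT replicate 3 the highest mean of 7 ER-positive luminal markers, 7.89. The counts of lower and higher genes are therefore also given below with single arrays left out.

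None of the 36 genes passed an adjusted p of 0.05 in limma, and across all 22206 tested probe sets 0.00901% did. At an unadjusted p under 0.05, 8 of the 36 (22.2%) were lower in Sox9 KO, namely Dst, Itga2, Itgb6, Lama4, Itgav, Lama5, Itga3 and Itgb4, where 4.99% of all probe sets were lower. Only Lamb1 (1 of 36, 2.78%) was higher, against 4.28% of all. After median centring of the arrays, 6.37% of all probe sets were lower and 3.22% higher, against 10 and 1 of the 36 genes. The groups did not overlap, with all Sox9 KO arrays below all WT arrays, for 7 of the genes (19.4%, against 7.3% of all probe sets), and for 0 genes in the other direction (6.85% of all). Past a measured difference of -1 as well were 2 of the 36 (5.56%, against 0.545% of all), Itgb6 and Dst, of which Dst was below background on all arrays. Past a difference of 1 were 0 (0.608% of all).

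The genes that were lower were mainly those with a signal above background. Of the 14 genes whose mean over the arrays was above the mean background level of 8.14, 6 (42.9%) were lower at an unadjusted p under 0.05 and 0 were higher, against 10.1% and 5.47% of the probe sets that bright. Of the 22 dimmer genes, 2 (9.09%) were lower and 1 (4.55%) was higher, against 3.25% and 3.87%. The median difference was -0.32 over the 14 brighter genes and -0.02 over all 5152 named genes that bright. Over all 36 genes it was -0.12, against 0.01 for all named genes, with 23 lower, 12 higher and Itga11 at 0.00.

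**Figure D1:**
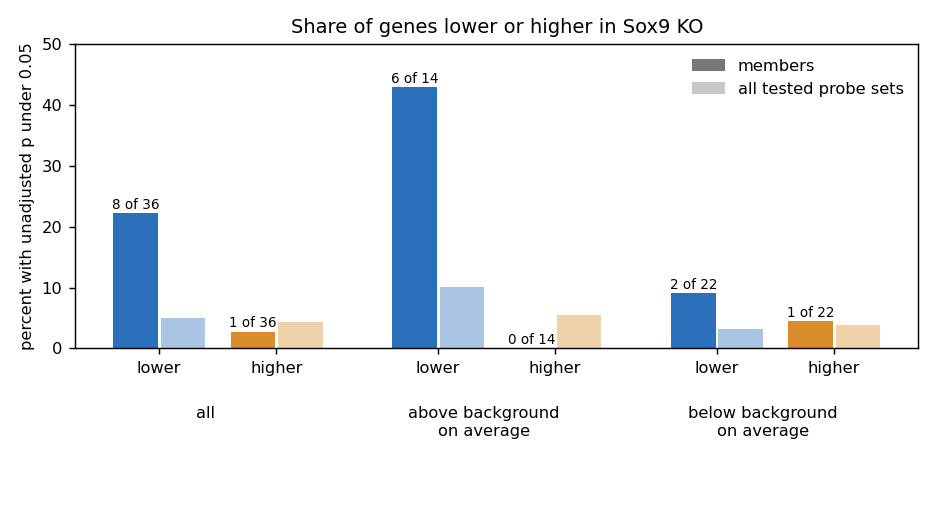
Percent of genes with an unadjusted p under 0.05, lower (blue) or higher (orange) in Sox9 KO, for the 36 integrin, laminin and linker genes (solid bars, with counts) and for all tested probe sets (pale bars), together and split by a mean signal above or below the background level of 8.14. The solid bar exceeds the pale one for lower genes in each split, most widely at 6 of 14 genes above background.

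The smallest p among the 36 genes belonged to Dst, dystonin, a giant cytoskeletal linker whose epithelial form BP230 ties hemidesmosomes to keratin. Its signals were 7.95, 7.34 and 7.49 in WT and 6.03, 6.22 and 5.92 in Sox9 KO. The lowest WT array was 1.12 above the highest Sox9 KO array. The measured difference was -1.54 (SE 0.19, 95% interval -1.97 to -1.10), with an unadjusted p of 4.6e-05 and an adjusted p of 0.127 in limma. All 6 values lay below the background level of their arrays, so no fold is given for Dst. Where the probes lie within the gene was not analysed here, so the epithelial, neuronal and muscle forms of Dst could not be told apart.

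The promoters of the genes with the 3 smallest p-values are shown, from the RefSeq promoter table of GRCm38.p6, as 250 bases before to 50 bases after an annotated start. Dst has more than 1 start, and both of its windows in the table are given. Itgb6 also has another window in the table, farther along the gene and without a match, which is not printed. They were searched on both strands for a SOX core (ACAATG or ACAAAG) and for an AP-1 motif (TGANTCA), and any match is in capitals.
Dst, chr1:34011345-34011644, plus strand: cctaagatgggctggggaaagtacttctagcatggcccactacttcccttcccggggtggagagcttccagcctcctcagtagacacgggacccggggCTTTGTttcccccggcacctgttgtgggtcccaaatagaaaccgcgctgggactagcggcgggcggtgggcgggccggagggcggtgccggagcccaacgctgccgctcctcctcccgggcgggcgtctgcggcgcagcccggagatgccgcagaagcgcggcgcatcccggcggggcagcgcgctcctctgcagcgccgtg
Dst, chr1:34160010-34160309, plus strand: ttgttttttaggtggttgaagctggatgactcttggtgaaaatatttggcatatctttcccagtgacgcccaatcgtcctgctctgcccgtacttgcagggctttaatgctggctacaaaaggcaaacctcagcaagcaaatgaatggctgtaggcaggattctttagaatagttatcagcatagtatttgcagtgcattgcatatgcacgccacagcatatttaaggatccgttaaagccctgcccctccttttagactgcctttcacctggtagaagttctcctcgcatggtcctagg
Itga2, chr13:114932051-114932350, minus strand: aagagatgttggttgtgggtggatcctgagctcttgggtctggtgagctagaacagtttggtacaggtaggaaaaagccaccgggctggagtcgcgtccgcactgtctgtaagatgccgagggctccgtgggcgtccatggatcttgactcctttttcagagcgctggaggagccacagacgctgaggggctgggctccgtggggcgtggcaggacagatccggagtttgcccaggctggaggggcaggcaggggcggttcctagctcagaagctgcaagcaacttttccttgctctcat
Itgb6, chr2:60722554-60722853, minus strand: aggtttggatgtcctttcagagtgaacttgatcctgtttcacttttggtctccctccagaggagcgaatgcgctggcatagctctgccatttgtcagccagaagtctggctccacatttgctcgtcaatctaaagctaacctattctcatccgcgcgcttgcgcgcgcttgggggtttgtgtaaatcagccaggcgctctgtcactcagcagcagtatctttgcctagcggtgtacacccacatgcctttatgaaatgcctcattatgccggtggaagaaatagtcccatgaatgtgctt
The only match in these windows is a SOX core on the minus strand of the first Dst window, read there as CTTTGT and starting at position -152 from the start. A SOX core was present in 28.6% of all 32851 promoters of the table and in 4 of the 28 promoters of the 23 genes that had one, those of Dst, Itga3, Itga8 and Itgb1. An AP-1 motif was present in 7.81% of all promoters and in 3 of the 28, those of Itga3, Itga9 and Itgax. A match in a window this short is a description of the letters and not of binding.

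Cd151, the tetraspanin that joins laminin-binding integrins in hemidesmosomes, was above background on all 6 arrays. Its signals were 9.89, 9.34 and 9.89 in WT and 9.84, 10.00 and 9.57 in Sox9 KO, with overlapping groups. The difference was 0.10 (SE 0.20, 95% interval -0.36 to 0.56), an interval that excludes a 2-fold difference either way. Col17a1, another transmembrane protein of hemidesmosomes, lay below background on all arrays, between 4.53 and 5.36.

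Itga2 encodes the alpha2 subunit, which pairs with beta1 as a collagen receptor. Its signals were 10.88, 10.82 and 10.39 in WT and 9.89, 9.75 and 9.51 in Sox9 KO. The lowest WT array was 0.50 above the highest Sox9 KO array, and all values were above background. The difference was -0.98 (SE 0.18, 95% interval -1.40 to -0.56), a 1.97-fold lower signal, with an unadjusted p of 0.00071 and an adjusted p of 0.196 in limma. Itga11, the other collagen-binding alpha subunit measured and one known mainly from fibroblasts, was below background on all arrays and had a difference of 0.00.

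Of the laminin-binding alpha subunits, Itga3 was lower and Itga6 was not past the test. Itga3, the partner of beta1 in a receptor for epithelial laminins, had signals of 9.89, 9.65 and 9.49 in WT and 8.79, 9.49 and 9.13 in Sox9 KO. The groups met at 9.49, the value of WT replicate 3 and of Sox9 KO replicate 2. The difference was -0.54 (SE 0.21), with an unadjusted p of 0.031 and an adjusted p of 0.479 in limma. Itga6, whose protein CD49f was held to a low range by the sort, had signals of 11.68, 11.62 and 11.28 in WT and 11.35, 11.27 and 11.10 in Sox9 KO. WT replicate 3 lay within the Sox9 KO range, and the difference was -0.29 (95% interval -0.65 to 0.08, unadjusted p of 0.107). Itga7, known from muscle, was below background on all arrays.

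Among the alpha subunits that recognise the RGD motif, Itgav was lower. Itgav, which pairs with several beta subunits to bind vitronectin and latent TGF-beta, had signals of 9.71, 9.73 and 9.29 in WT and 9.19, 9.07 and 9.07 in Sox9 KO. The groups did not overlap, although WT replicate 3 came within 0.10 of the highest Sox9 KO array. The difference was -0.47 (SE 0.16), with an unadjusted p of 0.020 and an adjusted p of 0.435 in limma. Itga8, known as a nephronectin receptor of mesenchymal cells, was above background on all 6 arrays. Its values were 10.17, 10.53 and 10.16 in WT and 9.77, 10.30 and 10.48 in Sox9 KO, and the groups overlapped. Itga5, the fibronectin receptor subunit, and Itga2b, the platelet subunit, were below background on all arrays, with differences of -0.19 and -0.26.

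Of the beta subunits that pair with Itgav, Itgb6 was lower, and Itgb3, Itgb5 and Itgb8 were not past the test. Itgb6, the epithelial partner in the receptor that activates latent TGF-beta, had signals of 10.86, 11.29 and 10.17 in WT and 9.26, 9.92 and 9.42 in Sox9 KO. The groups did not overlap, and WT replicate 3 was the closest to the Sox9 KO arrays. The difference was -1.24 (SE 0.30, 95% interval -1.93 to -0.55), a 2.36-fold lower signal, with an unadjusted p of 0.0035 and an adjusted p of 0.293 in limma. Itgb8, the other subunit known for activating latent TGF-beta, had a difference of 0.38 (95% interval -0.21 to 0.98). Its signal was 9.40 and 9.39 on Sox9 KO replicates 1 and 2, above the WT range of 8.53 to 8.87, and 8.50 on Sox9 KO replicate 3. Itgb5 had a difference of -0.03 (95% interval -0.40 to 0.34).

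Itgb3, which marks luminal progenitors in mouse mammary glands as CD61, was past 2-fold but not past the unadjusted test. Its signals were 7.16, 7.88 and 8.89 in WT and 6.24, 7.24 and 7.39 in Sox9 KO. Only WT replicate 3 was above background, and the lowest WT value lay within the Sox9 KO range. The difference was -1.02 (SE 0.46, unadjusted p of 0.059), and without WT replicate 3 it was -0.56.

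Itgb4, which pairs only with alpha6 and nucleates hemidesmosomes, had signals of 9.77, 9.32 and 8.99 in WT and 8.87, 9.06 and 8.14 in Sox9 KO. WT replicate 3 and Sox9 KO replicate 2 overlapped. The difference was -0.67 (SE 0.28, 95% interval -1.33 to -0.01), with an unadjusted p of 0.048 and an adjusted p of 0.533 in limma, and it was -0.40 without Sox9 KO replicate 3. Itgb1, the common partner of alpha2, alpha3 and alpha6, had signals of 11.14, 11.33 and 11.12 in WT and 10.81, 10.63 and 11.07 in Sox9 KO. The groups did not overlap, with only 0.05 between WT replicate 3 and Sox9 KO replicate 3. The difference was -0.36 (95% interval -0.72 to 0.00, unadjusted p of 0.052).

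**Figure D2:**
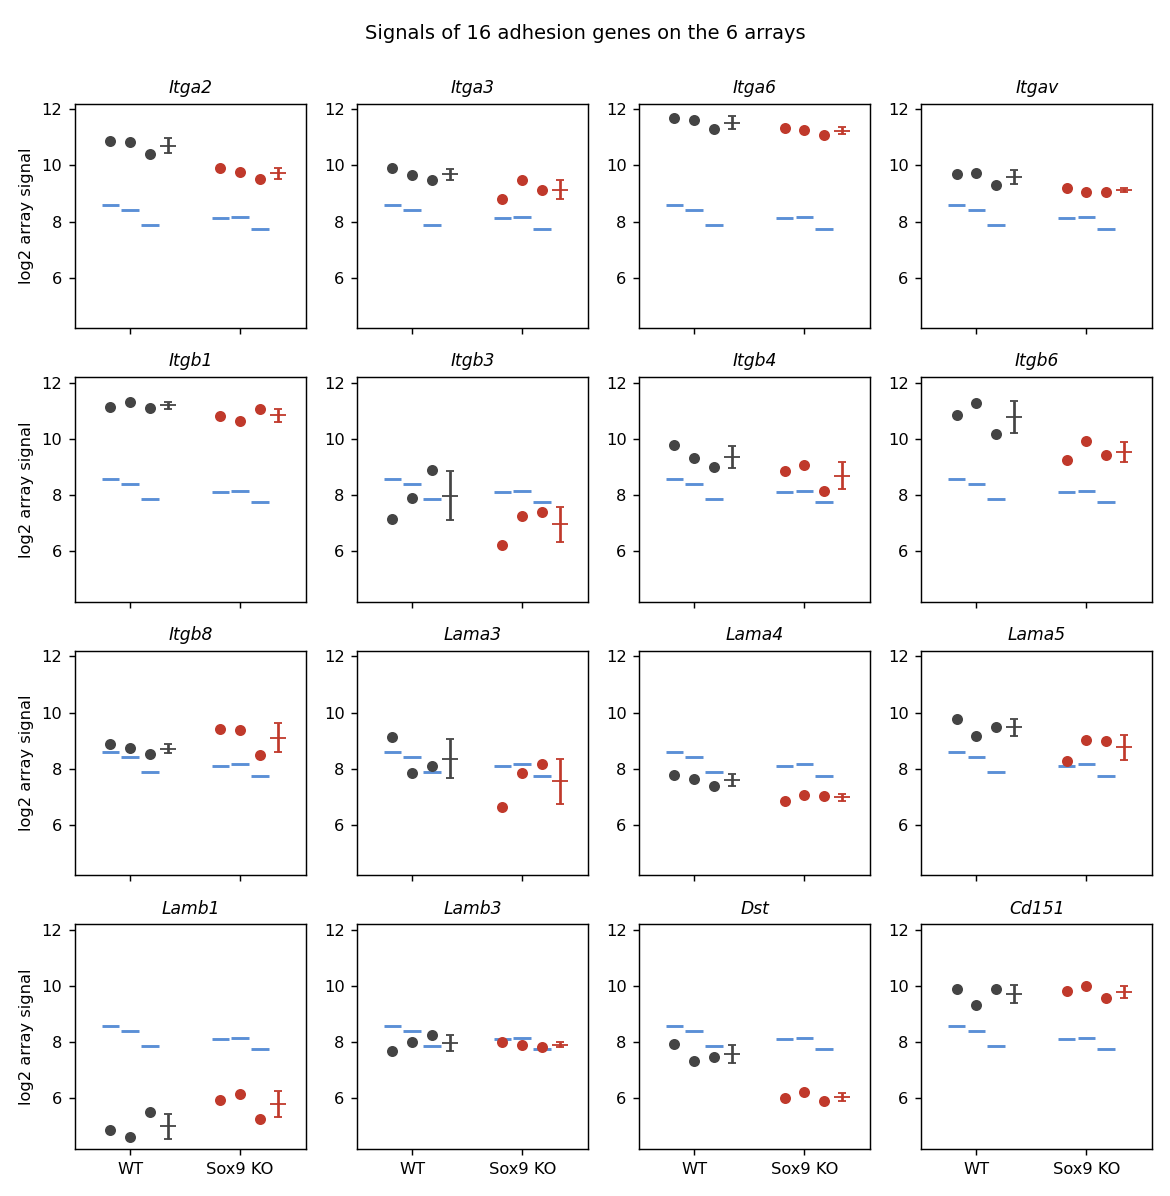
Log2 array signals of 16 of the genes on the 3 WT (grey) and 3 Sox9 KO (red) arrays, replicates 1 to 3 from left to right, with the mean and SD beside each group and the background level of each array as a blue line. The groups do not overlap for Dst, Itga2, Itgb6, Lama4, Itgav, Lama5 and Itgb1, and all 6 Dst, Lama4 and Lamb1 values lie under the blue lines.

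Of the 10 laminin chains measured, 2 were lower and 1 was higher at an unadjusted p under 0.05 (4.99% and 4.28% of all probe sets), and the 3 differed in how well they were measured. Lama5, the alpha chain of the widespread epithelial basement membrane laminins, had signals of 9.77, 9.17 and 9.47 in WT and 8.26, 9.02 and 9.0 in Sox9 KO. All WT arrays were above all Sox9 KO arrays, and Sox9 KO replicate 1 was the lowest. The difference was -0.71 (SE 0.25), with an unadjusted p of 0.022 and an adjusted p of 0.449 in limma, and without Sox9 KO replicate 1 it was -0.46. Lama4, a chain known from blood vessel and muscle laminins, was below background on all arrays. It had signals of 7.78, 7.62 and 7.37 in WT and 6.84, 7.06 and 7.02 in Sox9 KO. These groups did not overlap, and the difference was -0.62 (SE 0.15), with an unadjusted p of 0.0042 and an adjusted p of 0.297 in limma. The 9 endothelial markers were below background on all arrays, with means between 4.85 and 5.94 in WT and between 4.71 and 5.59 in Sox9 KO, and their part in the Lama4 difference was not tested.

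Lamb1, a beta chain of widespread laminins, was the only gene of the 36 higher at an unadjusted p under 0.05. Its signals were 4.88, 4.64 and 5.51 in WT and 5.95, 6.15 and 5.26 in Sox9 KO. All were far below background, and WT replicate 3 exceeded Sox9 KO replicate 3. The difference was 0.78 (SE 0.29), with an unadjusted p of 0.031 and an adjusted p of 0.477 in limma.

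Lama3 and Lamb3, which encode chains of the laminin at hemidesmosomes, were near background. Lama3 had signals of 9.14, 7.83 and 8.08 in WT and 6.63, 7.85 and 8.16 in Sox9 KO. WT replicate 1 was the highest and Sox9 KO replicate 1 the lowest, and the other arrays of both groups lay between 7.83 and 8.16. The difference was -0.80 (95% interval -1.87 to 0.26, unadjusted p of 0.119), and -0.35 without Sox9 KO replicate 1. Lamb3 was between 7.69 and 8.26 on all arrays, with a difference of -0.07 (95% interval -0.47 to 0.33). Lamb2 and Lamc1, chains that many laminins share, were above background on all arrays, with differences of -0.21 (95% interval -0.74 to 0.32) and 0.07 (95% interval -0.34 to 0.47). Lama1, Lama2 and Lamc3 were below background on all arrays, with differences of 0.08, 0.05 and -0.24.

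The 7 leukocyte integrins (Itgad, Itgae, Itgal, Itgam, Itgax, Itgb2 and Itgb7) lay below background on all arrays. Their differences were between -0.13 and 0.22 with a median of 0.10, and none was past an unadjusted p of 0.05. The 8 myeloid, 10 T and NK cell and 3 B cell markers measured were likewise below background on all arrays. Itga4 had a difference of 0.04 below background. Itga9, a receptor subunit for tenascin, was at 8.46 on WT replicate 1 and between 5.67 and 6.48 on the other arrays. Its difference was -0.64, and 0.28 without that array. WT replicate 1 also had the highest mean of the endothelial markers, and the part of other cells in this value was not tested.

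**Figure D3:**
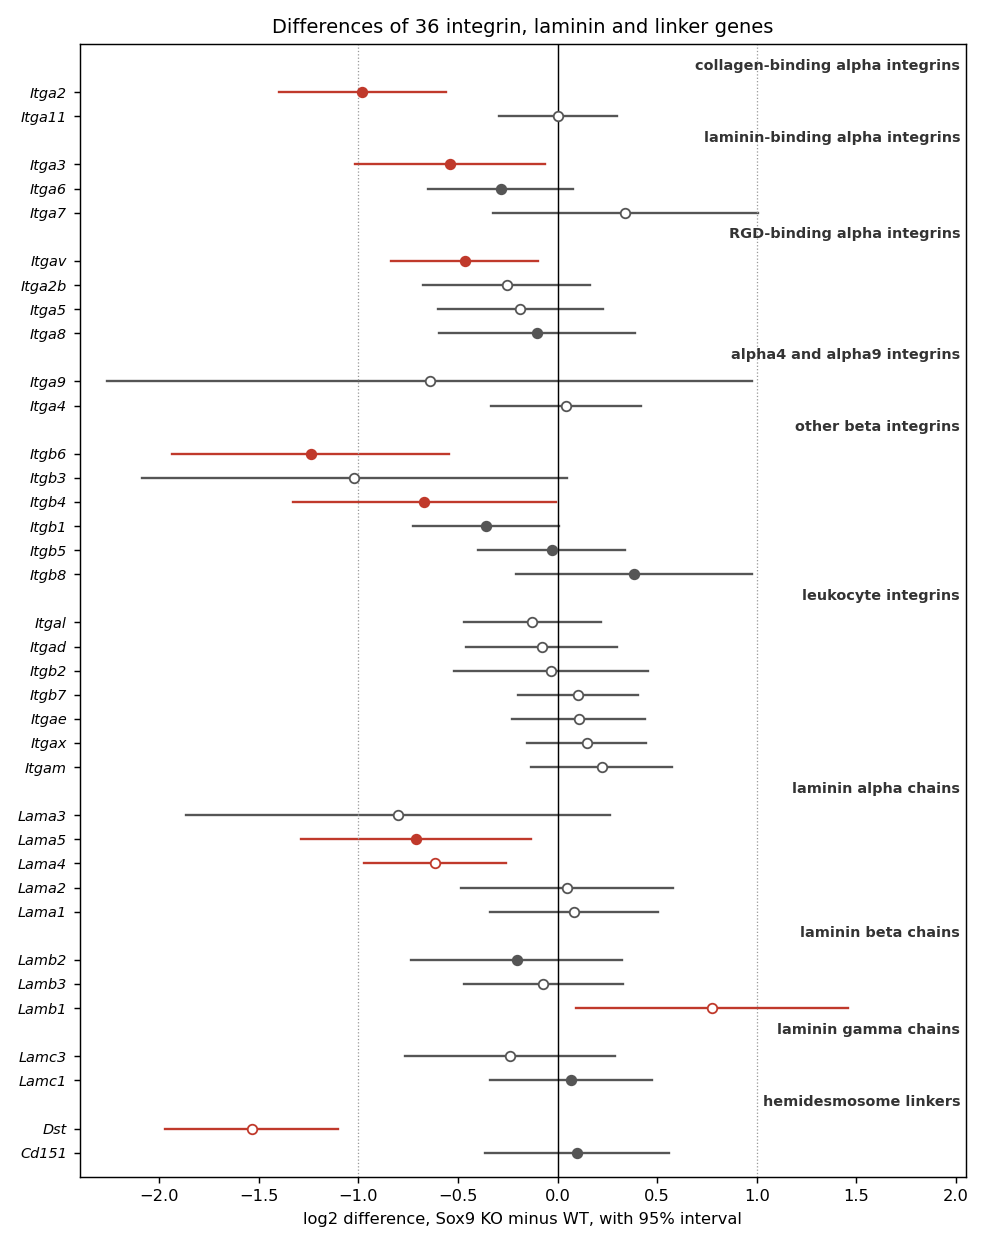
Log2 differences (Sox9 KO minus WT, horizontal axis) of the 36 genes with 95% intervals from limma, grouped by role. Red marks an unadjusted p under 0.05, filled points a mean signal above background, and dotted lines a 2-fold difference. Red points lie left of 0 for 8 genes and right of it for Lamb1, and the leukocyte integrins lie between -0.13 and 0.22.

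Of the 27 genes not past an unadjusted p of 0.05, 23 had a 95% interval of the measured difference within 2-fold either way. Only 8 of these were above background on all 6 arrays, and 14 were below it on all 6, where signals are compressed and a narrow interval excludes no difference in RNA. The 8 lower genes were not equally dependent on single arrays. Dst, Itga2, Itgb6 and Lama4 stayed under an unadjusted p of 0.05 whichever of the 6 arrays was left out. Itgav, Lama5 and Itgb4 did so in 3 of 6 cases, and Itga3 and the higher Lamb1 in 2 of 6. Itgav was no longer past it without WT replicate 1 or 2 or without Sox9 KO replicate 2, with p up to 0.073 in limma. Lama5 was not without WT replicate 1 or 3 or without Sox9 KO replicate 1 (p up to 0.079 in limma). Itgb4 was not without WT replicate 1 or 2 or without Sox9 KO replicate 3 (p up to 0.159 in limma). Itga3 kept its call only without WT replicate 3 or Sox9 KO replicate 2 (p up to 0.103 in limma otherwise). The count of lower genes was 8 with all arrays, where 4.99% of all probe sets were lower. That share also moved between runs and is given in brackets. Leaving out WT replicate 1 gave 5 genes (4.33%), and leaving out WT replicate 2 also gave 5 (3.27%). The count was 6 (4.05%) without Sox9 KO replicate 1, the array high in cell cycle genes, and 7 (4.53%) without Sox9 KO replicate 2. It was 9 (5.99%) without Sox9 KO replicate 3, the array high in fibroblast markers. It was 8 (4.51%) without WT replicate 3, with Itga6 counted and Lama5 not. Other genes also entered the count of lower genes, namely Itgb3 without WT replicate 1, and Itgb1, Itgb3 and Lamc3 without Sox9 KO replicate 3. In the other direction, Itgb8 was higher without Sox9 KO replicate 3 (0.68, unadjusted p of 0.0037 in limma). Itga7, below background, was higher without Sox9 KO replicate 1 (0.605, unadjusted p of 0.044 in limma). Of all probe sets, 6.57% and 3.98% were higher in these 2 runs. WT replicate 3 had the lowest WT value of 6 of the 8 genes lower with all arrays, and the highest ER-positive luminal mean. The Lamb1 call was lost without replicate 1 or 2 of either genotype.

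The markers of other cells that these genes could come from were set beside them. Basal mammary cells are known to carry more integrins and laminins than luminal cells. The 12 basal markers had means between 6.06 and 6.67 in WT and between 6.73 and 7.19 in Sox9 KO. Of these, 4 were higher and 0 lower at an unadjusted p under 0.05 (4.28% and 4.99% of all probe sets). These were Krt14 (2.57), Trp63 (1.99), Krt17 (1.15) and Snai2 (0.55), with adjusted p-values between 0.196 and 0.402 in limma. Trp63 was above background on all 3 Sox9 KO arrays and on 0 WT arrays. Of the 12 markers, 7 lay below background on all arrays, among them Krt5, Acta2, Myh11 and Snai2. The part of basal cells in the differences of the 36 genes was not tested. Of 11 markers shared by luminal cells, 9 were lower in Sox9 KO, and 10 were above background on all arrays. At an unadjusted p under 0.05, 4 were lower, among them Epcam (-0.42) and Cldn4 (-0.91), and 0 were higher. Of the probe sets with a mean above background, 10.1% were lower and 5.47% higher at that p. In such bulk samples fewer cells of a type and less RNA per cell cannot be told apart, and the part of the luminal markers in these differences was not tested.

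Inside the cell, integrins are tied to actin by adaptors of the focal adhesion. Of 27 such genes measured, 5 were lower and 0 higher at an unadjusted p under 0.05, and none passed the adjusted test in limma. Of all probe sets, 4.99% were lower and 4.28% higher at that p. The lower share was 10.1% among probe sets with a mean above background, and 16 of the 27 genes were above it on all arrays. Tns4, a tensin that binds integrin beta tails, had signals of 11.38, 11.72 and 11.44 in WT and 9.22, 10.24 and 10.28 in Sox9 KO. Its groups did not overlap, and the difference was -1.60 (SE 0.29), with an adjusted p of 0.196 in limma. Fermt1, the epithelial kindlin that helps activate integrins, had signals of 9.82, 10.07 and 10.12 in WT and 9.57, 9.18 and 9.57 in Sox9 KO, a difference of -0.56. Actn1, an actin crosslinker, and Vcl, vinculin, had differences of -0.72 and -0.58. The median over the 27 genes was -0.18, against 0.01 for all named genes.

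The tetraspanins, which organise integrins in the membrane, had 1 of 11 genes lower at an unadjusted p under 0.05. That share was 4.99% of all probe sets and 10.1% of those with a mean above background. Above background on all arrays were 7 of the 11 tetraspanins. The lower gene was Cd82, with signals of 11.74, 11.58 and 11.79 in WT and 11.05, 11.13 and 11.38 in Sox9 KO. Its difference was -0.52, with an adjusted p of 0.361 in limma. Of 19 other basement membrane genes, 15 were below background on all arrays. At an unadjusted p under 0.05, 1 was lower (Nid2, -0.42) and 1 higher (Frem2, 0.43), both below background. Of all probe sets, 4.99% were lower and 4.28% higher at that p. The 10 other receptors of the basement membrane likewise had 1 gene lower and 1 higher at that p. These were the syndecans Sdc4, lower by 0.73, and Sdc1, higher by 0.91, and neither passed the adjusted test in limma. Sdc4 had signals of 12.44, 12.29 and 12.21 in WT and 11.00, 11.66 and 12.08 in Sox9 KO. Sdc1 had signals of 10.08, 9.31 and 9.21 in WT and 10.79, 10.95 and 9.59 in Sox9 KO. The Sdc4 groups did not overlap, and the Sdc1 groups overlapped between WT replicate 1 and Sox9 KO replicate 3.

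**Figure D4:**
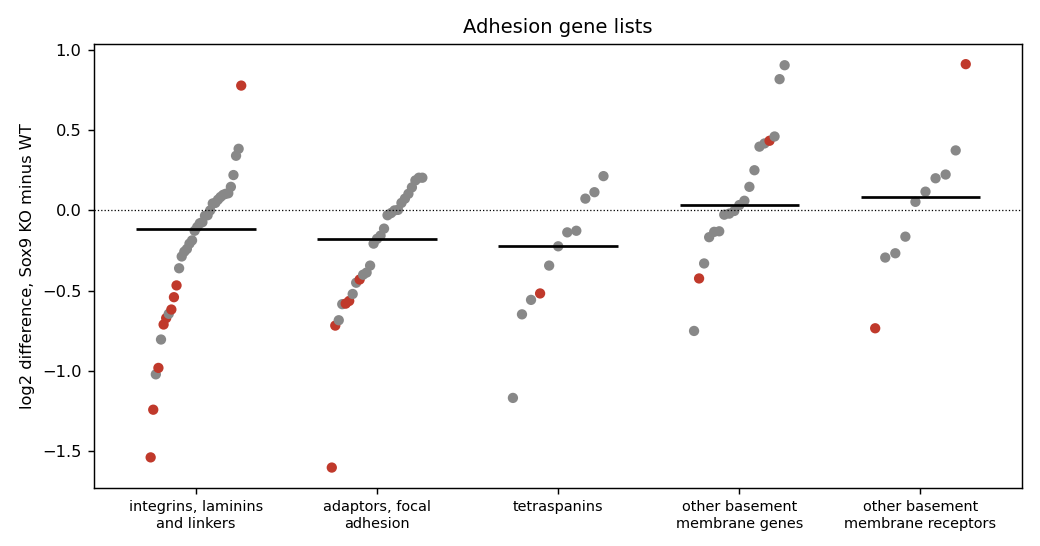
Log2 differences (Sox9 KO minus WT, vertical axis) of the 36 genes and of 4 related gene lists. Each point is a gene, red marks an unadjusted p under 0.05 and the bar is the median of the list, -0.12 for the 36 genes and -0.18 for the 27 adaptors.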

How the data were processed

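The authors hybridised RNA to Clariom S Pico mouse arrays, processed the scans with Expression Console and Transcriptome Analysis Console, and deposited log2 signals per probe set with 2 decimals. The range of the values showed the log2 scale. How background was corrected, arrays were normalized and probes were summarized is not given in the sources used here.

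Of 28846 probe sets, 6640 controls were left out and 22206 were tested. Probe sets were named through the platform annotation and RefSeq gene identifiers, 2634 stayed unnamed, and for a gene with several the one with the highest mean was used. No detection calls were used here, so 5222 negative control probe sets set the background level. Low signals are compressed toward background on such arrays. WT and Sox9 KO were compared in R 4.3.3 with the two-sided moderated test of limma 3.58.1 (lmFit, eBayes), without covariates. P-values were adjusted by Benjamini-Hochberg over all tested probe sets. The number of arrays limits the precision.

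The genes and lists were chosen with earlier results of these data known. Genes given in full had an unadjusted p under 0.05 or a 2-fold difference, or belong to the hemidesmosome and its laminin, with Itga3 and Itgb1; of related lists, those with the smallest p were named. Itga8, Itgb8, Itga9 and the genes given only by a difference or range were described after their values were seen. Results were recomputed after median centring or quantile normalization, without the dimmest probe sets (1 in 3, by their mean), and with array weights. Other runs used a trended and robust variance, a replicate block, an unpaired t-test, or probe sets averaged per gene. Each array was also left out in turn. The study names an unpaired t-test for its statistics in general, and Transcriptome Analysis Console for the arrays.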

Additional observations from a re-analysis of the deposited data

How the results depend on the processing

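The count of the 36 genes past an adjusted p of 0.05 stayed at 0 under every alternative run, the unpaired t-test included. The median difference stayed below 0. Each of the 36 genes has 1 probe set, so averaging probe sets per gene could not change their differences. The trended variance, the block and the t-test could not change them either. With each array left out in turn, the count of genes lower at an unadjusted p under 0.05 ran from 5 to 9 and the count higher from 0 to 2. Of all probe sets, 3.27% to 5.99% were lower and 2.36% to 6.57% higher in these runs. The median difference of the genes ran from -0.19 to -0.09. The unpaired t-test gave 5 lower and 0 higher, without Lama5, Itga3, Itgb4 and Lamb1, and 4.13% of all probe sets lower and 3.63% higher. With array weights Itga3 and Itgb4, and without the dimmest 1 in 3 probe sets Itgb4, were no longer past an unadjusted p of 0.05. Leaving out the dimmest 1 in 3 probe sets left 30 of the genes and moved the median to -0.22, since the genes removed are dim ones. The replicate numbers gave no sign of pairing, with correlations of 0.12, -0.03 and 0.03 between the deviations of samples of the same number. Those of samples of different numbers ran from -0.16 to 0.15. With 3 arrays per group, such values cannot show whether samples of the same number shared a day or litter. With the number as a block, 9 genes were lower and 0 higher, and 5.15% of all probe sets were lower and 4.73% higher. Median centring gave 10 lower and 1 higher, and 6.37% of all probe sets lower and 3.22% higher. Where no reason is given, the cause was not tested. Genes below background, Dst, Lama4 and Lamb1 among them, have compressed differences.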
